A study of Mus musculus with 4 samples.

Results

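Examined here were Setd2 and 9 further genes listed as writers (methyltransferases) or erasers (demethylases) of methyl groups on histone H3 lysine 36 (H3K36). They were picked by symbol, with earlier results of these data known. All 10 were found among the 24087 genes of the expression table, 6 as methyltransferase-family genes (Setd2, Nsd1, Ash1l, Setd5, Setd3 and Smyd2) and 4 as demethylase genes (Kdm2a, Kdm2b, Kdm4a and Kdm4c), and all 10 were among the 11399 genes tested. Expression was measured by RNA-seq in regulatory T (Treg) cells sorted from mouse spleen at steady state as CD3+CD4+YFP+. All mice were C57BL/6 and carried Foxp3Cre-YFP, which places the Cre recombinase under Foxp3, the lineage gene of Treg cells. The KO group was Foxp3Cre-YFPSetd2f/f, with both Setd2 alleles floxed, and the CTRL group was the littermate genotype Foxp3Cre-YFPSetd2f/+, in which the same Cre was present and 1 Setd2 allele was floxed, so the groups differed in 1 floxed allele and not in Cre. Each group had 2 libraries, named CTRL 1, CTRL 2, KO 1 and KO 2, and each library came from cells pooled from 2 mice by the series' design text, while the study's methods, which describe splenic and intestinal cells together, give 2 to 3. The labels gave no age.

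SETD2 travels with elongating RNA polymerase II and adds the third methyl group to H3K36 along the bodies of transcribed genes. NSD1 and ASH1L add the first and second methyl groups. KDM2A and KDM2B, which carry a Jumonji domain and a CpG-binding zinc finger, remove the lower methylation states, whereas KDM4A and KDM4C remove the higher states and also act on lysine 9 of the same histone. The methylated lysine is read by PWWP-domain and chromodomain proteins such as DNMT3A, which couple it to DNA methylation, repair and splicing. Transcript levels of these enzymes, which are what was measured here, do not show enzyme activity or the level of the mark.

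The sequences just upstream of the start are shown for the targeted gene and for the 3 genes that passed the test described below, so that genes that moved in opposite directions can be set beside one another. They came from the RefSeq promoter table (GRCm38.p6), which held 7 of the 10 members. Each run is the 250 bases before the first transcribed base, read 5′ to 3′ on the strand of the gene, with the GC box (GGGCGG, or CCGCCC on the other strand, overlapping matches counted) in capitals.
Setd2, chr9:110532347-110532596, plus strand: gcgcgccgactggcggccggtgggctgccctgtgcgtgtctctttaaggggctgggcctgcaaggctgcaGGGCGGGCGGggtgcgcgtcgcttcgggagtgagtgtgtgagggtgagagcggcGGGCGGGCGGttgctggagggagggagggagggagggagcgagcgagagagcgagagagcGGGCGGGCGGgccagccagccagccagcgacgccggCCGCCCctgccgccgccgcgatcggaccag
Smyd2, chr1:189922292-189922541, minus strand: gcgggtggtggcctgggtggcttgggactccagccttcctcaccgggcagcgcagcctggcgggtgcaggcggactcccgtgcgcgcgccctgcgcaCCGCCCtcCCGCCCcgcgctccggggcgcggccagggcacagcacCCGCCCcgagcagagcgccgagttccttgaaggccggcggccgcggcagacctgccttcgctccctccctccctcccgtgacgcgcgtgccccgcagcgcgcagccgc
Kdm2b, chr5:122989100-122989349, minus strand: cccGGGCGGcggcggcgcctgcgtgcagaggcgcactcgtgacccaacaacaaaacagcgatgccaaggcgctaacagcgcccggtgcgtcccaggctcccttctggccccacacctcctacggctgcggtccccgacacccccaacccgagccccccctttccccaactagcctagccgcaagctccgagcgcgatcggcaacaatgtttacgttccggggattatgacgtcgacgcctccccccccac
Kdm4a, chr4:118180044-118180293, minus strand: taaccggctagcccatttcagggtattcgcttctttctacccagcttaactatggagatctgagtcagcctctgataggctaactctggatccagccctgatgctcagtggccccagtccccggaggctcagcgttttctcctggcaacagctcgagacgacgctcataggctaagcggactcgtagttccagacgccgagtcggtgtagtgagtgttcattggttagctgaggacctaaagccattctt
Setd2 held 7 GC boxes and 31 CG pairs in this window, Smyd2 3 boxes and 34 CG pairs, Kdm2b 1 box and 27 CG pairs, and Kdm4a 0 boxes and 12 CG pairs. A GC box was present in 32.7% of 32851 promoter windows of this length, and in 57.8% of the 11257 windows of genes tested, which had a median of 16 CG pairs. The Setd2 and Kdm4a windows ended at the GENCODE start of the gene and the Smyd2 window lay 72 bases from it. Kdm2b had 4 entries, and the one shown was the nearest to the gene start, at 724 bases. The other 3 Kdm2b windows held 0, 5 and 6 GC boxes and 12, 36 and 38 CG pairs, so its count depends on the start that is used. These matches are a description of the letters and were not related to the expression differences.

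FPKM values are fragments scaled by gene length and library total. The library totals, inferred from the values, were 32803683 to 35460567 fragments, and 15913 to 19100 genes were above 0. Markers of Treg cells (Foxp3, Il2ra, Ikzf2, Ctla4 and Tnfrsf18) summed to between 1068 and 1178 FPKM in the 4 libraries with no gene called. Ctla4 alone was at 534 to 656 FPKM. At an unadjusted p under 0.05, Ikzf2 was higher in KO (limma unadjusted p 0.0291) and Il2ra lower (limma unadjusted p 0.0465). B cell markers summed to 26.2 FPKM in CTRL 1, 21.8 FPKM in CTRL 2, 41.0 FPKM in KO 1 and 24.5 FPKM in KO 2. The sums of B cell, myeloid, erythroid and plasma cell markers were higher in the libraries numbered 1 than in those numbered 2 in both groups. Myeloid sums were 217 FPKM in CTRL 1, 131 FPKM in CTRL 2, 289 FPKM in KO 1 and 109 FPKM in KO 2. Erythroid sums ran from 4.16 to 38.5 FPKM and plasma cell sums from 15.1 to 46.6 FPKM, with S100a8 listed at 0 in CTRL 2 and Hbb-bs at 0 in 3 libraries. Xist and the Y-linked genes were present in all 4 libraries, so each pool held cells of both sexes. Xist was at 29.1 and 37.3 FPKM in CTRL against 23.4 and 23.3 FPKM in KO (log2 difference -0.48, limma unadjusted p 0.0108, adjusted p 0.0664). All 5 sex-linked genes, Y-linked ones included, were below 0 in KO, and only for Xist were the groups apart. The Y-linked Eif2s3y was at 40.6 and 23.4 FPKM in CTRL against 23.8 and 29.1 FPKM in KO. limma-voom called 1 of 5 sex-linked genes lower, and the part of the sex mix in the results was not tested.

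Setd2, the targeted gene, was read first. Setd2 (ENSMUSG00000044791) lies on the plus strand of chromosome 9 from 110532597 to 110618633 (GRCm38), with 23 exon blocks that sum to 10754 bases. Transcript levels were 23.4 FPKM in CTRL 1, 25.3 FPKM in CTRL 2, 21.3 FPKM in KO 1 and 19.5 FPKM in KO 2. The KO libraries were the lower in every pairing with CTRL libraries, as held for 35.5% of all genes tested. The difference between the means was -16.1%, but the difference did not pass the threshold. On the log2(FPKM + 1) scale the difference was -0.24 ± 0.076 (standard error), with a 95% interval from -0.44 to -0.047, and limma gave an unadjusted p of 0.0243 and a Benjamini-Hochberg adjusted p of 0.0970. The interval did not reach 0, and it spans KO values of 0.738 to 0.968 times the CTRL value in FPKM + 1. These values rest on 5782 to 7313 fragments per library, which puts the counting error at 1.17% to 1.32%, well under the gap between the libraries of 1 group (0.11 in CTRL and 0.12 in KO on the log2 scale). The value is that of the whole gene, so transcripts that lack the floxed exons and transcripts that hold them were counted together. By protein assays, which were not part of these data, the paper reported SETD2 lost and trimethylated H3K36 strongly reduced in splenic KO Treg cells. It also described slightly less SETD2 in CTRL Treg cells than in conventional T cells, possibly because 1 Setd2 allele was deficient. The transcript difference is therefore not a measure of the loss of protein.

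**Figure D1:**
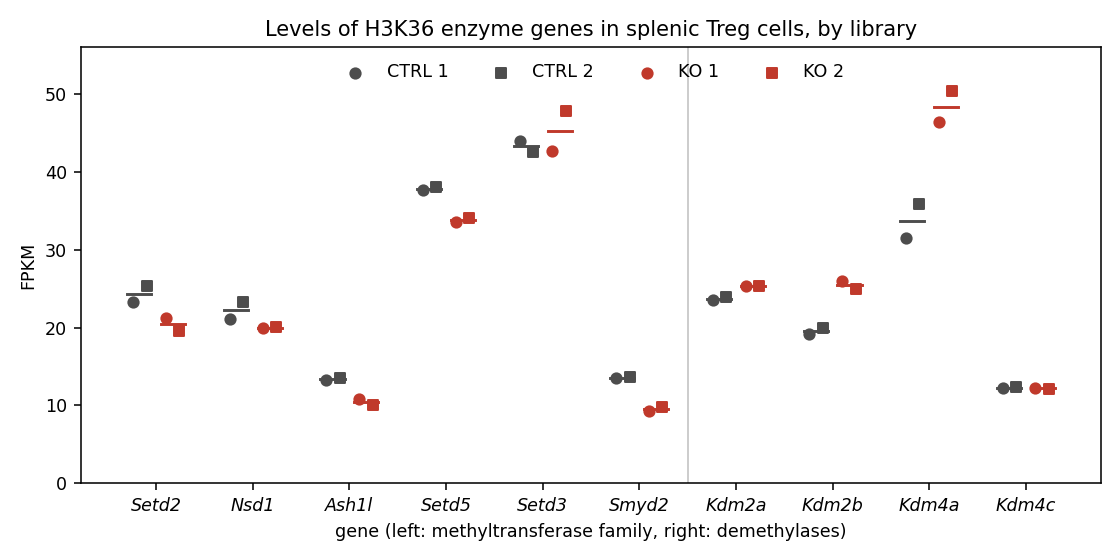
Transcript level in FPKM (vertical axis) of each of the 10 H3K36 enzyme genes (horizontal axis), with 1 point per library, 2 CTRL and 2 KO libraries per gene, and a bar at each group's mean. The KO points of Kdm4a, at 46.4 and 50.3 FPKM, and of Kdm2b lie above both CTRL points, those of Smyd2, Ash1l and Setd2 lie below, and the KO and CTRL points of Setd3 and Kdm4c overlap.

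Smyd2 was the only methyltransferase-family gene that passed the test, and it fell. SMYD2 is a SET and MYND domain enzyme that methylates H3K36 and also nonhistone proteins such as p53. Smyd2 (ENSMUSG00000026603, chromosome 1, 189880492 to 189922363, minus strand) was at 13.5 FPKM in CTRL 1, 13.7 FPKM in CTRL 2, 9.32 FPKM in KO 1 and 9.75 FPKM in KO 2. Both KO libraries were below both CTRL libraries, as held for 35.5% of all genes tested. The means were 13.6 ± 0.144 FPKM in CTRL and 9.53 ± 0.307 FPKM in KO (SD, n = 2 each). These SDs are smaller than the counting error of single libraries (3.62% to 4.35%), so they understate the spread. The log2 difference was -0.47 ± 0.068 (standard error), with a 95% interval from -0.64 to -0.30 and a limma adjusted p of 0.0351. Smyd2 had the lowest mean FPKM of the 10 genes, with 528 to 761 fragments per library and a counting error of up to 4.35%. Of its 2717 exon bases, 30.0% lie under the antisense gene Gm37422, whose reads cannot be told apart because the use of strand was not stated. The length behind its FPKM was 1605 bases, so the overlapping share of the counted bases is not known.

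Ash1l lay just outside the threshold. ASH1L is a large Trithorax-group enzyme that dimethylates H3K36 and keeps target genes in an active state. Ash1l (ENSMUSG00000028053, chromosome 3, 88950622 to 89079375, plus strand) was at 13.3 FPKM in CTRL 1, 13.5 FPKM in CTRL 2, 10.8 FPKM in KO 1 and 10.0 FPKM in KO 2. The KO mean was lower by 22.2%, a larger gap than that of Setd2, while the CTRL libraries differed by little (13.4 ± 0.116 FPKM, SD, n = 2). That SD is below the counting error of the CTRL libraries (1.38% and 1.43%). The log2 difference was -0.33 ± 0.071 (standard error), its 95% interval ran from -0.52 to -0.15, and the limma adjusted p was 0.0509. Within the 14838 exon bases of Ash1l, 352 are shared with Dap3 on the other strand.

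Nsd1 and Setd5 had smaller differences of the same sign. NSD1 dimethylates H3K36 largely between genes, and SETD5 is a SET-domain protein of chromatin whose own methyltransferase activity is disputed. Nsd1 (ENSMUSG00000021488, chromosome 13, 55209782 to 55318325, plus strand) had levels of 21.1 and 23.3 FPKM in CTRL against 19.9 and 20.1 FPKM in KO. Setd5 (ENSMUSG00000034269, chromosome 6, 113077365 to 113153435, plus strand) had levels of 37.7 and 38.0 FPKM in CTRL against 33.6 and 34.1 FPKM in KO. Neither passed the threshold. Both genes had both KO libraries below both CTRL libraries, as held for 35.5% of all genes tested. The log2 difference of Nsd1 was -0.14 (95% interval -0.32 to 0.039, limma adjusted p 0.221) and that of Setd5 was -0.16 (95% interval -0.29 to -0.020, limma adjusted p 0.112). For Setd5, the standard error of 0.054 was the smallest among the 10 genes.

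Setd3 had the highest mean FPKM of the 10 genes and showed no difference that the test could detect. SETD3 was first described as an H3K36 methyltransferase and is now best known for methylating a histidine of actin. Setd3 (ENSMUSG00000056770, chromosome 12, 108106431 to 108179314, minus strand) was at 44.0 FPKM in CTRL 1, 42.5 FPKM in CTRL 2, 42.7 FPKM in KO 1 and 47.9 FPKM in KO 2. The groups overlapped, and the KO libraries were the more spread (45.3 ± 3.65 FPKM against 43.3 ± 1.04 FPKM, SD, n = 2). The log2 difference was 0.062 with a 95% interval from -0.13 to 0.25 and a limma adjusted p of 0.599, so a change of either sign within that interval is possible. Of the stretches of 100 bases in the Setd3 transcripts, 6.03% also occur in Gm14026 or Gm7114, and fragments from these could have been assigned to either.

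Among the demethylase genes, Kdm4a and Kdm2b rose, and Kdm4a had the largest difference of any of the 10 genes. KDM4A removes the third methyl group that SETD2 adds, and also demethylates H3K9. Kdm4a (ENSMUSG00000033326, chromosome 4, 118136957 to 118180043, minus strand) was at 31.6 FPKM in CTRL 1, 35.9 FPKM in CTRL 2, 46.4 FPKM in KO 1 and 50.3 FPKM in KO 2. Both KO libraries exceeded both CTRL libraries by more than the libraries of a group differed among themselves. The mean rose by 43.5%, from 33.7 ± 3.04 FPKM to 48.4 ± 2.80 FPKM (SD, n = 2), with a log2 difference of 0.51 ± 0.085 (standard error), a 95% interval from 0.29 to 0.73 and a limma adjusted p of 0.0387. Between 5131 and 8847 fragments per library lay behind these values, and no 100-base stretch of Kdm4a occurs in another annotated transcript.

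Kdm2b encodes the demethylase that also brings a variant Polycomb repressive complex to unmethylated CpG islands. Kdm2b (ENSMUSG00000029475, chromosome 5, 122870665 to 122989823, minus strand) was at 19.2 FPKM in CTRL 1, 20.0 FPKM in CTRL 2, 26.0 FPKM in KO 1 and 25.0 FPKM in KO 2. The KO libraries were the higher in every pairing with CTRL libraries, as held for 29.0% of all genes tested. The KO mean was 30.1% above the CTRL mean, and the log2 difference was 0.36 ± 0.062 (standard error), with a 95% interval from 0.21 to 0.52 and a limma adjusted p of 0.0395. Kdm2b shares 627 exon bases, or 5.77%, with Rnf34 on the other strand and 199 with A930024E05Rik, and 10.4% of its stretches of 100 bases occur in these genes, Gm44574 or Gm12397, so fragments of these genes may be part of its value.

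Kdm2a and Kdm4c, the close relatives of the genes that rose, did not pass the test. KDM2A is the paralog of KDM2B with the same demethylase and CpG-binding domains, and KDM4C has the same substrates as KDM4A. Kdm2a (ENSMUSG00000054611, chromosome 19, 4314419 to 4398285, minus strand) had levels of 23.6 and 23.9 FPKM in CTRL against 25.3 FPKM in both KO libraries. Kdm4c (ENSMUSG00000028397, chromosome 4, 74242497 to 74405860, plus strand) had levels of 12.2 and 12.4 FPKM in CTRL against 12.3 and 12.2 FPKM in KO. The Kdm2a groups lay apart by a small distance, with KO above, as held for 29.0% of all genes tested, and the Kdm4c groups overlapped. The log2 difference of Kdm2a was 0.089, with a 95% interval from -0.055 to 0.23 and a limma adjusted p of 0.317, whereas that of Kdm4c was -0.0070, with a 95% interval from -0.17 to 0.16 and a limma adjusted p of 0.948.

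**Figure D2:**
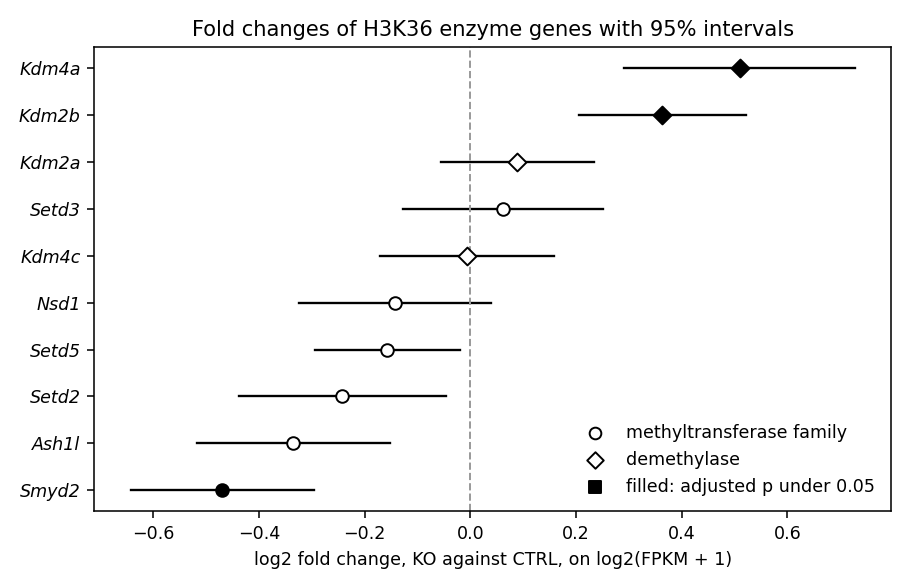
Difference between KO and CTRL (horizontal axis, log2(FPKM + 1) scale) for each of the 10 genes (vertical axis), with 95% intervals from limma, 2 libraries per group, and filled points where the adjusted p was under 0.05. The intervals of Kdm4a (0.29 to 0.73), Kdm2b (0.21 to 0.52) and Smyd2 (-0.64 to -0.30) are those of the 3 genes that passed, and the intervals of Setd2, Ash1l and Setd5 also leave out 0 without passing the adjusted threshold.

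Of the 10 genes, 2 rose (Kdm4a and Kdm2b), 1 fell (Smyd2) and 7 did not pass, at limma adjusted p under 0.05. As background, 9.75% of all 11399 genes passed at this threshold, 5.10% as higher and 4.65% as lower in KO. At an unadjusted p under 0.05 there were 6 of the 10 genes, 2 higher and 4 lower, against 34.7% of all genes (16.3% higher and 18.4% lower). The groups did not overlap for 8 of the 10 genes, 3 with KO above and 5 with KO below, while this held for 64.5% of all genes tested, 29.0% above and 35.5% below. The median log2 difference of the 10 genes was -0.075, and that of all genes tested was -0.022.

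Among the genes that passed, the 1 methyltransferase-family gene fell and both demethylase genes rose. Of the 6 methyltransferase-family genes 5 were below 0 on the log2 scale, with Setd3 as the exception and a median of -0.20, and of the 4 demethylase genes 3 were above 0, with Kdm4c as the exception and a median of 0.23. Of all genes tested, 6128 were below 0 and 5271 above. With the trend with exon length removed, Nsd1 was at 0 to 2 decimals, Setd5 at -0.0098 and Kdm4c at 0.035. Summed over the 6 methyltransferase-family genes, expression was 153 FPKM in CTRL 1, 156 FPKM in CTRL 2, 138 FPKM in KO 1 and 141 FPKM in KO 2. The demethylase sums were 86.5, 92.1, 110 and 113 FPKM in the same order. Setd3 and Setd5, whose activity on H3K36 is less settled, made up much of the methyltransferase sum, with CTRL means of 43.3 and 37.8 FPKM. The ratio of the demethylase sum to the methyltransferase sum was 0.566 and 0.589 in CTRL and 0.799 and 0.798 in KO. It describes chosen genes, with no test of its own. Kdm4a (mean 33.7 FPKM in CTRL, 48.4 FPKM in KO) and Kdm2b (19.6 and 25.5 FPKM) carried most of the rise. Kdm2a (23.7 and 25.3 FPKM) and Kdm4c (12.3 and 12.2 FPKM) moved little. Kdm4b, which is outside the sum, went the other way (14.3 and 12.0 FPKM). Since FPKM is a share of each library, it does not tell more transcripts of a gene per cell from fewer of other genes, or a change in the cells from a change in the mix of cells.

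Ratios within a library do not depend on the scaling of that library. Kdm4a over its paralog Kdm4c was 2.59 and 2.90 in CTRL and 3.78 and 4.14 in KO, and Kdm2b over Kdm2a was 0.816 and 0.835 in CTRL and 1.03 and 0.986 in KO. Kdm4a over Setd2, the eraser over the writer of the same methyl group, was 1.35 and 1.42 in CTRL and 2.18 and 2.58 in KO. Setd2 over Setd3 was 0.531 and 0.594 in CTRL and 0.498 and 0.408 in KO. The groups did not overlap for any of these 4 ratios, while the same held for 64.5% of all single genes tested. Each ratio had a two-sided exact permutation p of 0.333, the smallest that 2 libraries against 2 allow. The pairs were chosen, and those with Kdm4a or Kdm2b on top repeat the calls of these genes, so they add no support. For Kdm4a over Setd2 the log2 ratio differed by 0.78, and for Kdm4a over Kdm4c by 0.53.

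In the order of levels, Setd3 (mean 44.3 FPKM over the 4 libraries), Kdm4a (41.0 FPKM) and Setd5 (35.8 FPKM) led. They were followed by Kdm2a (24.5 FPKM), Kdm2b (22.5 FPKM), Setd2 (22.4 FPKM) and Nsd1 (21.1 FPKM), and Kdm4c (12.2 FPKM), Ash1l (11.9 FPKM) and Smyd2 (11.6 FPKM) were the lowest. In only 2 places were all 4 values of a gene above all 4 of the next, between Setd5 and Kdm2a and between Nsd1 and Kdm4c, and the other neighbours overlapped. By FPKM the 10 genes thus formed a group of 3, a group of 4 and a group of 3. This order rests on the gene lengths behind the FPKM, recovered as 2725 bases for Setd3, 4956 for Kdm4a and 6470 for Setd5. Their exon sums were 6035, 5782 and 18347 bases, and with those lengths the order would not be the same. Kdm4a went from rank 3 in CTRL to rank 1 in KO, Kdm2b from rank 7 to rank 4, and Setd2 from rank 4 to rank 6. Even the lowest, Smyd2, stood above 47.7% of the genes tested, and Setd2 above 67.3%.

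None of the other enzymes of the same mark passed limma's test, which 9.75% of all genes tested passed, so 0 calls in lists this short say little. At an unadjusted p under 0.05 the share of all genes was 34.7%. Of 5 other H3K36 methyltransferase genes (Nsd2, Nsd3, Setmar, Smyd5 and Prdm9) 0 passed in either direction, 0 were under an unadjusted p of 0.05, and limma-voom on recovered fragments also called 0, with a median log2 difference of -0.10. Of 4 other H3K36 demethylase genes (Kdm4b, Kdm4d, Kdm8 and Riox1) 0 passed, 1 had an unadjusted p under 0.05, limma-voom called 0, and the median was 0.064. Kdm4b, the third broadly expressed member of the KDM4 family, had levels of 12.9 and 15.6 FPKM in CTRL against 12.0 FPKM in both KO libraries, so its log2 difference of -0.23 (limma adjusted p 0.184) was opposite in sign to that of Kdm4a. Kdm4d was the gene with the unadjusted call and was barely expressed, at 0.641 to 1.52 FPKM.

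Among 21 genes for proteins that read methylated H3K36, 0 rose and 1 fell, with a median of -0.014. Of all genes tested, 5.10% rose and 4.65% fell. At an unadjusted p under 0.05, 2 readers were higher and 5 lower, against 16.3% and 18.4% of all genes. limma-voom called 2 higher and 2 lower, and in 7 of the 12 other settings 1 or 2 readers were called higher. The largest difference among the readers was a rise just outside the threshold, that of Pwwp2b (log2 difference 0.57, limma adjusted p 0.0504). Its levels were low, at 1.87 and 1.62 FPKM in CTRL and 3.31 and 2.85 FPKM in KO. The gene that fell was Hdgfl3, a PWWP-domain gene of the HDGF family. Hdgfl3 had 8.19 and 8.20 FPKM in CTRL and 6.09 and 6.12 FPKM in KO (log2 difference -0.37, limma adjusted p 0.0443). Its call was lost in 4 of 12 other settings, with a limma adjusted p of 0.0698 with the exon length trend removed, 0.0687 with the GC trend removed, 0.0669 with quantile normalization and 0.106 with all genes above 0 tested. Dnmt3a, the DNA methyltransferase that binds this mark, had levels of 14.6 and 16.0 FPKM in CTRL against 17.7 and 16.1 FPKM in KO and did not pass (limma adjusted p 0.298). Of 5 genes for partners of SETD2 (Polr2a, Iws1, Supt6, Hnrnpl and Spop) 0 passed, 2 had an unadjusted p under 0.05, limma-voom called 0, and the median was -0.0069.

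Some enzymes of other histone lysines had larger differences than Setd2 itself. Of 22 other histone lysine methyltransferase genes 1 rose and 3 fell, against 5.10% and 4.65% of all genes tested, and 17 were below 0, with a median of -0.11. Kmt2c and Kmt2d, the paralogous H3K4 monomethyltransferases of enhancers, both fell. Kmt2c went from 14.7 and 15.2 FPKM in CTRL to 9.01 and 10.1 FPKM in KO (log2 difference -0.60, limma adjusted p 0.0351), and Kmt2d from 39.4 and 40.3 FPKM in CTRL to 25.3 and 29.0 FPKM in KO (log2 difference -0.54, limma adjusted p 0.0355). With the exon length trend removed, Kmt2d no longer passed (log2 difference -0.39, limma adjusted p 0.0545). The gene that rose was Kmt5a, the H4K20 monomethyltransferase of dividing cells, from 43.0 and 40.1 FPKM to 61.5 and 61.2 FPKM (log2 difference 0.55, limma adjusted p 0.0324), and Kmt2a was the remaining gene that fell. Of 13 other histone lysine demethylase genes 0 passed, 1 had an unadjusted p under 0.05, limma-voom called 1, and the median was -0.015.

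**Figure D3:**
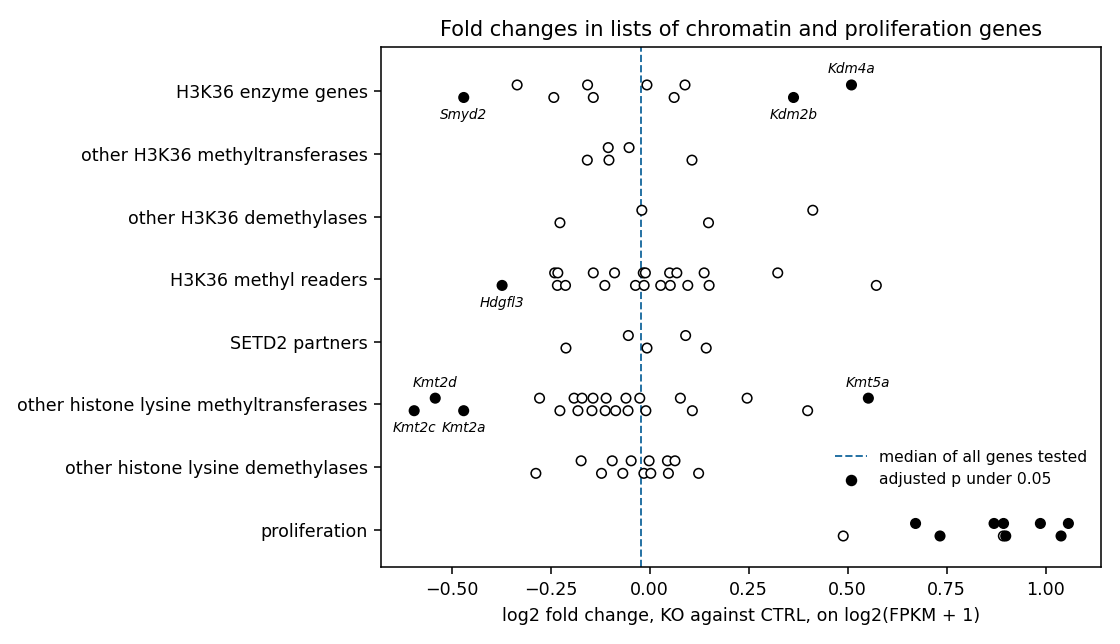
Difference between KO and CTRL (horizontal axis, log2(FPKM + 1) scale) of each gene of 8 lists (vertical axis), with 1 point per gene, filled where the limma adjusted p was under 0.05, and a dashed line at the median of all genes tested (-0.022). The proliferation genes all lie above 0 (median 0.89). The other H3K36 lists have medians from -0.10 to 0.064, with readers running from -0.37 to 0.57. Kdm4a and Smyd2 are the outermost of the 10 H3K36 enzyme genes.

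Proliferation genes moved with the genotype in the same libraries. Of 10 such genes (Mki67, Top2a and cyclin and mitotic genes among them) 8 rose and 0 fell, with all 10 at an unadjusted p under 0.05, and their summed level was 163 FPKM in CTRL 1, 120 FPKM in CTRL 2, 265 FPKM in KO 1 and 262 FPKM in KO 2. The count of 8 fell to 3 without the variance trend and to 0 when all 19888 genes above 0 were tested. The part that more dividing cells may have in the values of Kdm4a, Kdm2b and Smyd2 was not tested. Marker genes of B, CD8 T, NK, myeloid, erythroid and plasma cells had 0 calls by limma, with 2 at an unadjusted p under 0.05 (both B cell genes) and 1 call by limma-voom, and their part was not tested either.

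The genes whose levels followed those of Setd2 most closely over the 4 libraries were sought among 79 genes of the chromatin lists, by the Euclidean distance between log2(FPKM + 1) values centred on each gene's mean. The nearest were Kmt5b (distance 0.079), an H4K20 methyltransferase gene, Setd1b (0.098), an H3K4 methyltransferase gene, and Ash1l (0.11). Kmt5b had levels of 18.0 and 18.5 FPKM in CTRL against 15.7 and 15.3 FPKM in KO. Such a likeness was common with 4 libraries, as 134 of all genes tested were at least as near to Setd2 as Kmt5b was, and 452 at least as near as Ash1l.

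Fold changes ran with transcript length across the table, and several of the 10 genes are long. When the genes tested were divided by summed exon length into 4 classes of equal size, from the shortest to the longest, the median log2 difference was 0.050, 0.0086, -0.032 and -0.089. In the longest class 2.46% of genes were called higher and 6.21% lower, whereas in the shortest 8.20% were called higher and 3.65% lower. The longest class began at 6591 bases and held Setd2, Nsd1, Ash1l, Setd5, Kdm2a and Kdm2b. These are GENCODE exon sums, while the lengths behind the FPKM were 5439 bases for Kdm2b and 6470 for Setd5, below that start. With each library's trend with exon length removed, the log2 difference of Setd2 was -0.15 (limma adjusted p 0.244), that of Ash1l -0.21 (limma adjusted p 0.117) and that of Setd5 -0.0098 (limma adjusted p 0.918).

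The 3 called genes kept their calls in that fit. Kdm4a was at 0.55, Kdm2b at 0.46 and Smyd2 at -0.50 with the length trend removed, and Kdm2a was at 0.21 (limma adjusted p 0.0740). The positive difference of Kdm2b thus went against the median of its own length class. Whether the trend with length came from the cells or from the preparation of RNA was not tested.

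**Figure D4:**
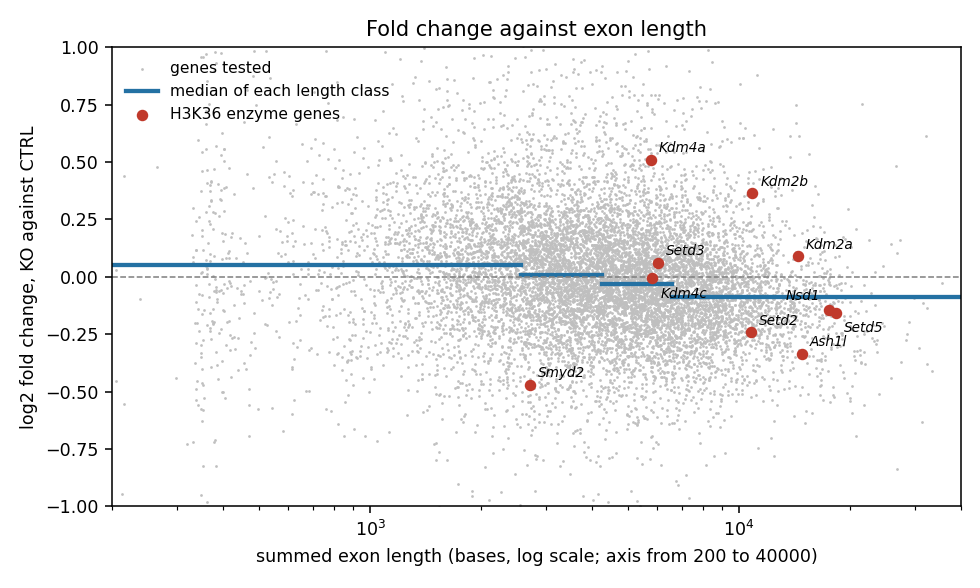
Difference between KO and CTRL (vertical axis, log2(FPKM + 1) scale) against summed exon length in bases (horizontal axis, log scale) for the genes tested in grey and the 10 H3K36 enzyme genes in red, with the median of each length class as a line. The medians step down from 0.050 to -0.089, Setd2, Nsd1, Setd5 and Ash1l lie at or below the line of the longest class, and 311 of 11397 genes fall outside the axes.

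Leaving out 1 library left a group with a single library, so that the spread came from the 2 libraries of the other group alone and the lone library was assumed to vary like them. With any 1 library left out, none of the 10 genes passed limma's adjusted threshold and at most 1 gene in each direction did among all genes, although 4 or 5 of the 10 genes had an unadjusted p under 0.05. The differences themselves moved little in those fits, between 0.42 and 0.60 for Kdm4a, between 0.33 and 0.39 for Kdm2b, between -0.50 and -0.44 for Smyd2 and between -0.30 and -0.18 for Setd2. Setd2 did not pass in any of 12 other settings, where its log2 difference ran from -0.26 to -0.15 and its adjusted p from 0.0649 to 0.244. Ash1l passed in 4 of the 12, with limma-voom on recovered fragments giving the lowest adjusted p of 0.0212.

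**Figure D5:**
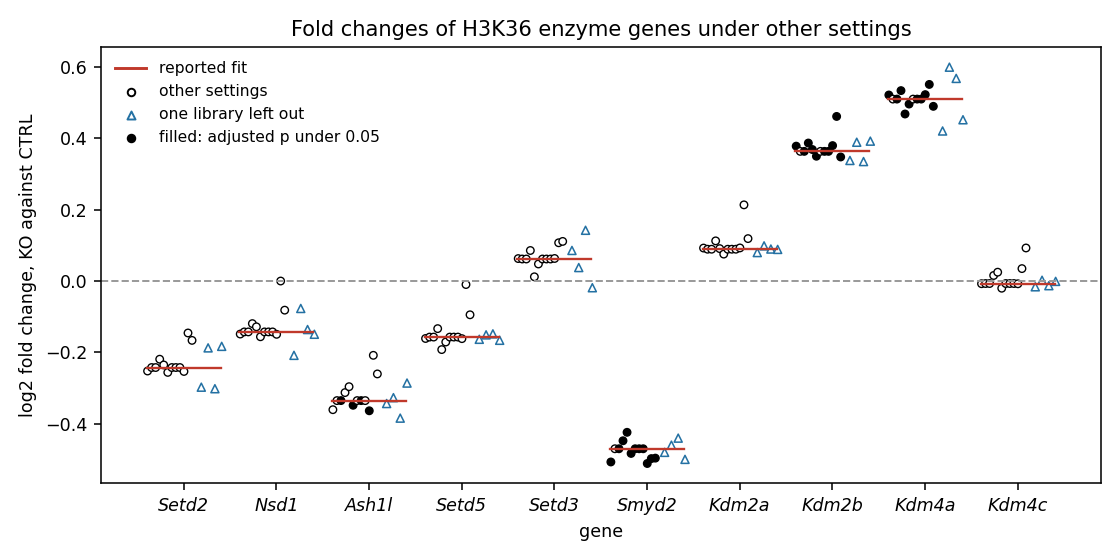
Difference between KO and CTRL (vertical axis, log2(FPKM + 1) scale, limma-voom on its own log2 scale) of each of the 10 genes (horizontal axis) in the reported fit (line), in 12 other settings (circles) and with 1 library left out (triangles), filled where the adjusted p was under 0.05. Kdm4a and Kdm2b stay above 0 and Smyd2, Ash1l and Setd2 below 0 in every fit shown, and none of the triangles is filled.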

How the data were processed

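RNA-seq libraries of sorted splenic Treg cells were compared between KO and CTRL (2 libraries each, of about 1000000 cells pooled over mice). Poly(A) RNA was selected on oligo(dT) beads and sequenced from both ends. According to the submitters' processing notes, reads were mapped to mm10 with HISAT2 2.2.1 and counted with featureCounts 2.0.1, and the authors used edgeR 3.34.0. The deposited values were FPKM computed by the authors. The gene length behind them, whether strand was used, and how fragments with several matches were treated were not given in the sources used here. Columns named WT were read as the CTRL libraries of the same number.

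Each gene's FPKM values were whole multiples of 1 fragment's worth for 19887 of 19888 genes above 0 (99.995%, tolerance 0.001 fragment). The smallest such whole numbers gave the fragments behind each value, at least 29986116 to 32684687 per library. The library totals behind the FPKM (32803683 to 35460567) were inferred separately. They were the totals that made the most gene lengths equal to GENCODE exon sums (196 of 9586 genes checked). The gene lengths behind the FPKM rest on these inferred totals. Over all genes, the replicates of a group differed by more than counting noise (chi-square per gene 14.3 in CTRL and 19.1 in KO). The spread between 2 pools thus mostly set the precision. For single genes such as Smyd2, the 2 pools lay closer than the counting error.

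KO and CTRL were compared with limma 3.58.1 (R 4.3.3) on log2(FPKM + 1), with eBayes and a variance trend. Genes were tested if they reached 1 FPKM in 2 or more libraries, which left 11399. P-values were two-sided, with Benjamini-Hochberg adjustment over all genes tested and a threshold of adjusted p under 0.05. The scale understates changes of weakly expressed genes. A count test was not the main test because the values were FPKM, and limma-voom was run on the recovered fragments as an alternative. Gene positions, exon lengths and overlaps came from GENCODE vM21 on GRCm38. Genes named outside the members were those of the H3K36, reader and partner lists past the threshold, the 3 with the largest called differences in the larger lists and the 3 nearest to Setd2. Kmt2a, Kdm4b, Kdm4d, Pwwp2b, Dnmt3a and Xist were named after their values were seen. The members, lists and rules were chosen with earlier results of these data known. Alternatives were another pseudocount, 2 filters, 3 scalings, 2 variance models, the replicate number as a block, limma-voom, removal of trends with exon length or GC content, and leaving out each library.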

Additional observations from a re-analysis of the deposited data

How the results depend on the processing

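Setd2 kept its sign and stayed outside the threshold in every setting tried. Testing all 19888 genes above 0 gave 0 calls, higher or lower (limma, 2212 higher and 2251 lower at an unadjusted p under 0.05), and so 0 of the 10 genes in either direction. Without the variance trend 315 genes were called higher and 364 lower, and 0 of the 10 genes were higher, with Kdm2b and Kdm4a at an adjusted p of 0.0536. limma-voom called 891 higher and 1002 lower, and removal of the exon length trend left 352 lower. With mean FPKM above 5, the same sum for each library, robust eBayes or limma-voom, 2 of the 10 genes were lower, Smyd2 and Ash1l. With a block for the replicate number, 968 higher and 805 lower calls were made, with the same 3 of the 10 genes called. Same-numbered libraries deviated together only weakly (Pearson 0.342, Spearman 0.055, 2 pairs) and no label links a number with a litter or day. Leaving out 1 library gave 0 to 1 genes higher (Gm4956, without KO 1), 0 to 1 lower (Lars2, without CTRL 2) and 0 of the 10 genes, higher or lower. Kdm4c reversed to 0.016 with median-ratio scaling, 0.025 with quantile normalization, 0.035 with the exon length trend removed, 0.093 with the GC trend removed and, over the fits that left out 1 library, ran from -0.016 to 0.0021 (without CTRL 2). Setd3 ran from -0.019 (without KO 2) to 0.14. The share of calls that were higher was 52.3% as reported, 60.2% with median-ratio scaling, 60.0% with exon length removed and 46.8% with equal sums. The cause of these shifts was not tested.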
